A study of Homo sapiens with 192 samples.

Results

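Mitochondrial ribosomal protein genes are the nuclear genes that encode the protein part of the ribosome inside mitochondria. They were taken here as every protein-coding gene whose symbol starts with MRPL or MRPS followed by a number, which gave 78 of the 58243 genes in the count tables and of the 19788 that GENCODE 29 calls protein-coding. By symbol 49 are MRPL and 29 are MRPS. By the current ribosome nomenclature 51 encode proteins of the large subunit, including MRPS18A (mL66) and MRPS30 (mL65), whose symbols carry the S of the small subunit. The small subunit has 26, and MRPS36, also called KGD4, is a component of the oxoglutarate dehydrogenase complex and not of the ribosome. The same nomenclature classes 27 of the ribosomal proteins as shared by all ribosomes, 19 as shared with bacterial ribosomes and 31 as mitochondrial alone. The last class holds MRPS18A and MRPS18B, although both are related to the bacterial protein S18. The 78 genes lie on 21 chromosomes.

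The mitochondrial ribosome translates the few proteins encoded by mitochondrial DNA, which are core subunits of the respiratory chain complexes and of the ATP synthase. Its ribosomal RNAs are transcribed inside mitochondria, whereas all of its proteins are made in the cytosol and imported, so its assembly draws on both genomes. In the colorectal epithelium and in colorectal cancer cells, mitochondria supply ATP by oxidative phosphorylation alongside glycolysis.

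RNA sequencing was performed on 24 libraries of poly(A)+ RNA from the established colorectal cancer lines HT29, LS174T, HCT116 and LS513. Each of these 4 lines was grown either in 2D or in 3D, and every combination has 3 libraries (those of HT29 in 3D are numbered 1, 3 and 4). Microsatellites are stable in LS513 and HT29 and unstable in LS174T and HCT116. The labels name no treatment, and they give neither the time in 3D nor whether the 3 libraries of a group came from separate cultures, so the p-values measure the spread between these libraries, which may be technical. Markers of other cell types were mixed: of 6 fibroblast genes 1 was detected (over 3 counts in every library of a group) in HT29, LS513 and LS174T and 2 in HCT116, the T cell gene CD3E and the fibroblast gene COL1A2 were at 0 counts in all libraries, and the leukocyte gene PTPRC had at most 2 counts in any library, but between 2 and 3 of the 6 immune genes were detected in each group, CD68 with at least 73 counts in every library and LYZ with up to 2660 CPM. Of 4 endothelial genes 1 was detected in HT29 and in LS513 grown in 3D, 2 in HCT116, and 0 in LS513 grown in 2D and in LS174T. The 10 epithelial genes were all detected in HT29, LS513 and LS174T, whereas 8 were detected in HCT116 grown in 2D and 9 in HCT116 grown in 3D.

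Library totals ranged from 18723942 to 34277421 counts, the lowest being 2D library 3 of HT29. Values are given as CPM (counts per 1000000 counts), scaled between libraries by the trimmed mean of M values (TMM). All 78 genes passed the filter on low counts among 19387 genes tested, with between 349 and 9541 counts in a library and between 15.1 and 319 CPM, far above the 0.0875 to 0.16 CPM that 3 counts come to. Tests used the edgeR quasi-likelihood fit of all 24 libraries, and a gene was called when its p-value, adjusted by the Benjamini-Hochberg method over all genes tested, was under 0.05. Genes on the same strand shared over 10% of the exonic bases of 10 members, the most being 68.2% of MRPL12 with AC139530.2 and 45.2% of MRPL53 with CCDC142, and 29 members had exons opposite a gene on the other strand. How reads of those stretches were assigned is not given in the sources used here, so the values of these genes are uncertain to that extent. Of 75 named pseudogenes of 34 members, 3 had enough counts to be tested, and all 75 together took between 0.0787 and 0.269% of the counts of members and pseudogenes.

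Together the 78 genes took between 5022 and 7178 CPM, which is between 0.502 and 0.718% of a library. In HT29 the summed level was 5658 ± 123 CPM in 2D (SD, n = 3) and 6223 ± 248 CPM in 3D, and the libraries did not overlap. In LS174T it was 5159 ± 176 CPM in 2D and 5914 ± 1109 CPM in 3D, and the wide spread came from 3D library 2, at 7178 CPM against 5461 and 5104 CPM in the other libraries. In LS513 the sum was 5493 ± 93.0 CPM in 2D and 5558 ± 322 CPM in 3D, and in HCT116 it was 6193 ± 650 and 6275 ± 583 CPM, so in these lines growth moved the sum by less than its spread.

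**Figure D1:**
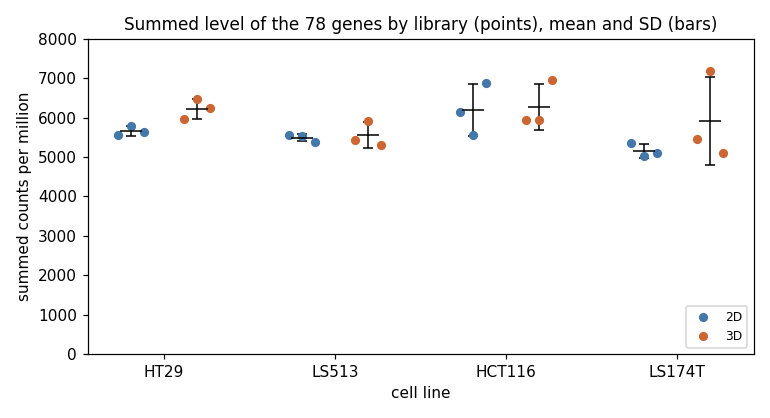
Summed level of the 78 genes in CPM (vertical axis, starting at 0) by cell line and growth condition. Points are the 3 libraries of a group, and the bar and whiskers are their mean and SD. The 3D libraries of HT29, between 5968 and 6464, lie above the 2D libraries of that line, between 5554 and 5794, and 3D library 2 of LS174T, at 7178, is the highest of all 24.

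In several groups 1 library held the highest value of most members. In 3D library 2 of LS174T 73 of the 78 members were at their highest among the 3 libraries of that group, whereas 41.1% of all genes tested were. In HCT116 library 3 was the highest for 73 members in 3D and for 69 in 2D, with 38.5 and 40.2% of all genes. In 3D library 2 of LS513 60 members were at their highest, against 34.6% of all genes. In HT29 library 3 was the highest for 51 members in 3D and library 2 for 46 in 2D, with 32.0 and 33.6% of all genes. In LS174T grown in 2D library 1 was the highest for 51 members, with 39.7% of all genes. The members were most evenly spread in LS513 grown in 2D, where the 3 libraries were the highest for 34, 30 and 14 members. For LS174T the number of calls and the members that kept them are also given without 3D library 2.

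Divided by the length of the principal transcript in kilobases, levels can be compared between genes. MRPL12, a stalk protein of the large subunit, was the highest, with a median over the 24 libraries of 135 CPM per kilobase and a range from 120 to 239.9. MRPL3, a core protein of the large subunit, came next with 118, followed by MRPL20 with 116, MRPL33 with 114 and MRPS34 of the small subunit with 113. The lowest library of MRPL12, at 120, lay above the medians of the other 4, although the ranges of all 5 overlapped. The lowest were MRPL50 with 12.6, MRPS23 with 12.5, MRPS33 with 12.2, MRPS14 with 12.1 and MRPL42 with 4.89 CPM per kilobase. MRPL42 has the longest principal transcript of the family, 15582 bases, and divided by all its exonic bases it was again the lowest, with 4.65, whereas MRPL20 was at place 34 and MRPL33 at place 23 on that scale. The order at the top thus depends on which transcript length is used, and MRPL12 was first on both scales.

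The promoters of the family were examined for letters that its members share. RefSeq windows from 250 bases before to 50 bases after a transcription start were at hand for 69 members, 85 windows in all (GRCh38.p14), and 4 motifs known from promoters of nuclear genes for mitochondrial proteins were searched on both strands. The ETS motif CCGGAAG was found in 30 of the 69 genes (43.5%), against 20.2% of the 11933 tested genes with a window, and in 38.8% of the member windows against 10.3% of all 35116 windows. The YY1 motif AAGATGGC was found in 21 of 69 genes (30.4%), against 5.82% of tested genes, and in 27.1% of the member windows against 2.89% of all windows. The NRF1 motif GCATGCGC was in 6 genes (8.70% against 5.87%; 3.05% of all windows), and the E-box CACGTG was in 9 genes (13.0% against 12.1%; 7.26% of all windows). The end of the ETS letters and the start of the YY1 letters can share AAG, and both were then counted. A match is a description of the letters and not a binding site. By call over the mean of the 4 lines (below), the ETS letters were in 12 of 28 genes called higher in 3D, 4 of 11 called lower and 14 of 30 not called. The YY1 letters were in 8 of 28, 3 of 11 and 10 of 30.

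Printed here are the 250 bases before the start for 4 genes that were higher in 3D and hold the ETS letters, for MRPL17, which was higher as well and holds the NRF1 letters 3 times, in part overlapping, and for 2 genes that were lower in 3D, of which MRPL3 holds the ETS letters and MRPL19 none of the 4 motifs. Each runs 5′ to 3′ on the strand of the gene, and capitals mark the motif letters on either strand. The windows are chr6:43687792-43688041 (minus strand) for MRPS18A, chr2:74472681-74472930 (minus) for MRPL53, chr19:3762432-3762681 (plus) for MRPL54, chr1:150293611-150293860 (plus) for MRPS21, chr11:6683341-6683590 (minus) for MRPL17, chr3:131502972-131503221 (minus) for MRPL3 and chr2:75646533-75646782 (plus) for MRPL19.
MRPS18A: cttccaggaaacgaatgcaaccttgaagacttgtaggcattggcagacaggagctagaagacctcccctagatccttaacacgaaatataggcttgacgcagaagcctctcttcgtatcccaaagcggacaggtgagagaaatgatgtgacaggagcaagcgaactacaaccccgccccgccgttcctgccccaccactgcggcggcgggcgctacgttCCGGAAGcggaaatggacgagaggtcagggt
MRPL53: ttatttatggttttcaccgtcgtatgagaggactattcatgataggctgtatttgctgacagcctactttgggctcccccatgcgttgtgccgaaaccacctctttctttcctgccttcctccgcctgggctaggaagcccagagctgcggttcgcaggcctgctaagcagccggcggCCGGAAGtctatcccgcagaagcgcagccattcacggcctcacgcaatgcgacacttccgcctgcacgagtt
MRPL54: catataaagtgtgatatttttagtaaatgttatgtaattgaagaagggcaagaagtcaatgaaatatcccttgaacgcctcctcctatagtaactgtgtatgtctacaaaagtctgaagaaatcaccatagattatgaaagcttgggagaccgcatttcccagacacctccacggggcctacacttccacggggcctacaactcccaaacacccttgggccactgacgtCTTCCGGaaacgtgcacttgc
MRPS21: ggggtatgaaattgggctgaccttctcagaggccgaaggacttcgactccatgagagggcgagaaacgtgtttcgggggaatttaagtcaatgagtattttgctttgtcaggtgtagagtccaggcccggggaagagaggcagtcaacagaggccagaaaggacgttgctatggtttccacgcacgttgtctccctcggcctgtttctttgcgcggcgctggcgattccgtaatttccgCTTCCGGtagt
MRPL17: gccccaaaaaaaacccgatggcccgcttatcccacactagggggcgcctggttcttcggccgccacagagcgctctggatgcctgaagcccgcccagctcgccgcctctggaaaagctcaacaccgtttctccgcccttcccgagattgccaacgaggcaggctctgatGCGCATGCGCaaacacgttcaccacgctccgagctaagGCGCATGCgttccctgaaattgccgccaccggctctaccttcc
MRPL3: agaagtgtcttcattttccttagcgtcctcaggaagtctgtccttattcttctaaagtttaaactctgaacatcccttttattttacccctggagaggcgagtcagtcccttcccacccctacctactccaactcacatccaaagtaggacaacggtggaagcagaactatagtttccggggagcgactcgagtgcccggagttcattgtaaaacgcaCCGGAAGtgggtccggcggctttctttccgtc
MRPL19: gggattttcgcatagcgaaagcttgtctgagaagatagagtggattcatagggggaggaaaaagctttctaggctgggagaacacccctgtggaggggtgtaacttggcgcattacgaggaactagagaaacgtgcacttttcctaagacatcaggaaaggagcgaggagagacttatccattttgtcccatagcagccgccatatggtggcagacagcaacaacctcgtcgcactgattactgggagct

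The YY1 letters lay mostly just after the start. In the 50 bases after it they were found in 16 of the 69 genes (23.2%), against 3.61% of tested genes, and in all 16 they were on the strand of the gene. The letters contain an ATG, and in 13 of the 16 genes this ATG is an annotated start codon in GENCODE 29, so the letters there also encode the first amino acids of the protein. Short stretches of at most 28 bases with the YY1 letters in capitals are shown for 3 genes called higher in 3D over the mean of the lines (MRPS18A, chr6:43687765-43687791, minus strand; MRPS18B, chr6:30617853-30617880, plus; MRPS24, chr7:43869481-43869508, minus) and for 2 called lower (MRPS30, chr5:44808950-44808977, plus; MRPS10, chr6:42217835-42217861, minus).
MRPS18A: aggtttttgAAGATGGCggccctcaag
MRPS18B: ggcgtacgtcAAGATGGCggcgtctgta
MRPS24: cgcttggcccAAGATGGCggcctccgtg
MRPS30: atcgcgggcaAAGATGGCggcggccagg
MRPS10: gggaccggcAAGATGGCggcgcggaca

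The position of the genes gave another shared feature. Of the 78 members, 18 (23.1%) have a protein-coding gene that starts on the other strand between 1000 bases upstream and 100 bases downstream of their own start, as have 10.2% of the tested protein-coding genes. MRPS11 and MRPL46 are such neighbours of each other, with starts 34 bases apart. The pairs did not all move alike: MRPL27 was higher in 3D over the mean of the lines (log2 difference 0.29) where EME1, 6 bases away, was lower (-0.39), whereas MRPL18 and TCP1, a subunit of the cytosolic chaperonin, were both lower (-0.22 and -0.51), as were MRPL30 and MITD1 (-0.18 and -0.18).

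Which of these genes differed between 3D and 2D was then asked in each line. All log2 fold changes below are 3D minus 2D. Comparisons within a line are of 3 against 3 libraries.

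In HT29 24 of the 78 genes differed, 19 of them higher in 3D and 5 lower. The 19 are 24.4% of the family, where 21.1% of all genes tested were called higher, and the 5 are 6.41%, where 19.6% were called lower. The median log2 fold change of the family was 0.20, against 0.00 over all genes. The genes that rose most were MRPL54 of the stalk, MRPS21 and MRPS28 of the small subunit, MRPS18A and MRPS33. MRPS21 (chr1:150293720-150308979) was at 57.9, 54.5 and 53.4 CPM in 2D and 84.0, 96.8 and 89.3 CPM in 3D. The groups did not overlap, and the log2 fold change was 0.70 (SE 0.13, adjusted p = 0.00016). MRPS28 was at 27.9 ± 0.869 CPM in 2D (SD, n = 3) and 44.7 ± 5.49 CPM in 3D, a log2 fold change of 0.67 (SE 0.18). It shares 35.8% of its exonic bases with AC036214.3. The other genes that rose did so by between 0.29 (MRPL13) and 0.53 (MRPL27 and MRPL53). The call of MRPL13 was lost in 10 of the 24 fits that each left out 1 library (adjusted p up to 0.11): those without 3D library 3 or 2D library 1 or 3 of HT29, 2D library 1 of HCT116, or any 2D library of LS513 or LS174T. That of MRPL33 was lost without 2D library 2 or 3 of HT29 (up to 0.062). The 5 that fell were MRPS6 (-0.54) and MRPS10 (-0.29) of the small subunit and MRPS30 (-0.35), MRPL19 (-0.35) and MRPL18 (-0.34) of the large subunit. MRPL18, which binds the 5S rRNA in other ribosomes and sits in the central protuberance, was at 61.9, 64.8 and 57.0 CPM in 2D and at 44.3, 49.8 and 50.6 CPM in 3D (adjusted p = 0.0062). Without 3D library 2 of LS174T, which enters the shared estimate of spread, 47 genes were called in HT29, and with every gene of at least 1 count in the fit the calls were 28 higher and 1 lower. The share of all genes called is not given for these fits or for other settings in any line. Their counts are therefore of members alone and are not set against all genes.

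In LS174T 14 genes differed and all were higher in 3D. They are 17.9% of the family, against 13.1% of all genes called higher, while 0 were called lower, against 9.15% of all genes. At an unadjusted p under 0.05, 36 were higher and 2 lower, and DESeq2 called 21 higher and 2 lower. The median of the family was 0.24, against 0.02 over all genes. The genes that rose most were MRPL54 (0.81), MRPS18A (0.62), MRPL23 (0.60) and MRPL22 (0.55). MRPL22 lines the exit of the tunnel through which the new protein leaves the ribosome. It was at 33.1, 33.9 and 35.7 CPM in 2D and at 41.7, 67.5 and 40.8 CPM in 3D. The groups did not overlap, but 3D library 2 was far above the others, and the log2 fold change was 0.55 (SE 0.15, adjusted p = 0.013), or 0.28 (adjusted p = 0.14) without that library. The calls in this line leaned on single libraries: without 3D library 2 the count was 2, namely MRPL10 (0.42) and MRPS18A (0.41), and the median 0.07, and without 3D library 3 the count was 41 and the median 0.34. It was 8, 5 and 7 without 2D library 1, 2 and 3, and 1 when the 6 libraries of LS174T were fitted alone.

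In LS513 6 genes differed, 5 higher in 3D (6.41%, against 13.7% of all genes) and 1 lower (1.28%, against 9.9%). The median was 0.02, against 0.00 over all genes. MRPL28 rose most, with 42.1, 44.5 and 43.0 CPM in 2D and 59.2, 66.9 and 53.4 CPM in 3D. These did not overlap, and the log2 fold change was 0.47 (SE 0.14, adjusted p = 0.014). The call was lost without 3D library 2 (adjusted p = 0.094) or 2D library 1 (adjusted p = 0.053). MRPL53 and MRPS18A rose by 0.45 each, MRPS24 by 0.43 and MRPL10 by 0.28. MRPS24 shares its locus with the read-through gene URGCP-MRPS24 over 23.2% of its exonic bases, and its call was lost in 15 of the 24 fits that each left out 1 library, 6 without an HT29 library, 5 without an LS513 library (all but 3D library 3), 2 without HCT116 3D library 2 or 2D library 1, and 2 without LS174T 2D library 2 or 3 (adjusted p up to 0.23). MRPL19 was the 1 gene that fell (-0.33). The count was 1, 0 and 12 without 3D library 1, 2 and 3, it was 2, 1 and 3 without 2D library 1, 2 and 3, and it was 10 without 3D library 2 of LS174T.

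In HCT116 12 genes differed, 5 higher in 3D (6.41%, against 16.8% of all genes) and 7 lower (8.97%, against 12.3%). The median was 0.03, against 0.01 over all genes. The genes that rose were MRPL53 (0.51), MRPL43 (0.43), MRPL14 (0.38), MRPS18A (0.37) and MRPL17 (0.36). MRPL43 was at 84.0, 77.9 and 101 CPM in 2D and at 116, 109 and 130.0 CPM in 3D, with no overlap (SE 0.12, adjusted p = 0.0074, and 0.057 without 2D library 2). Its exons lie opposite those of SEMA4G and TWNK over 36.9% of their length. The genes that fell were all but 1 of the large subunit: MRPL1 (-0.55), MRPL19 (-0.45), MRPL42 (-0.38), MRPL39 (-0.34), MRPL30 (-0.31) and MRPL3 (-0.30), with MRPS35 (-0.27) of the small subunit. The call of MRPL14 was lost in 11 of the 24 fits that each left out 1 library (all HCT116 libraries but 2D library 3, all HT29 libraries but 3D library 3, and 3D library 1 of LS513; adjusted p up to 0.20). Those of MRPL17 (3D library 1 or 3), MRPL30 (3D library 1 or 2) and MRPL3 (3D library 1 or 2) were lost without single 3D libraries of HCT116 and without 2D library 1, and for MRPL17 and MRPL30 also without 2D library 2 (adjusted p up to 0.16). MRPL42 was at 96.4, 96.3 and 88.7 CPM in 2D and at 70.0, 70.1 and 76.8 CPM in 3D. The groups did not overlap (SE 0.091, adjusted p = 0.0033). Without 2D library 1 the count was 5 and without 2D library 2 it was 7, with 0 of those 7 higher in 3D. DESeq2 called 8 higher and 7 lower, and with every gene of at least 1 count in the fit 7 were higher and 6 lower.

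**Figure D2:**
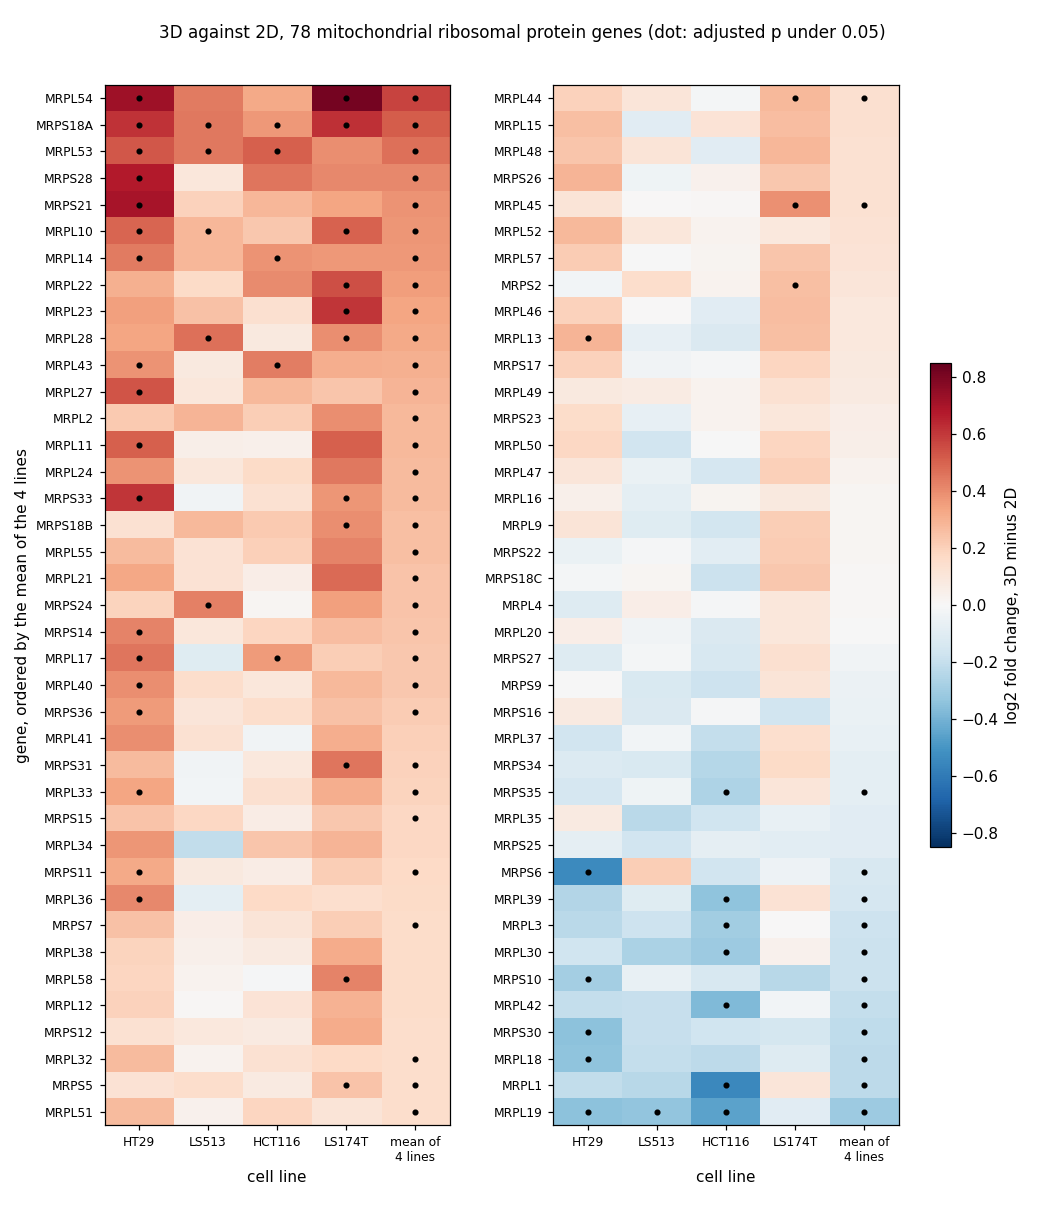
Log2 fold change of 3D minus 2D for each of the 78 genes (rows, ordered by the mean of the 4 lines, first the left and then the right panel) in each cell line and for the mean of the 4 lines (columns). Red is higher in 3D, blue is lower, and a dot marks an adjusted p under 0.05. MRPS18A has a dot in all 4 lines, and the lower end holds the 11 genes that were lower over the mean of the lines.

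Some genes differed in the same direction in several lines. Of the 78, 41 were called in at least 1 line. In at least 1 line 30 were called higher, where 35.3% of all genes were, and 11 lower, where 28.4% were. The number called higher in 1 line and lower in another was 0, which is given without a share over all genes. Called higher in at least 3 lines were 3 genes, MRPS18A, MRPL53 and MRPL10, against 8.38% of all genes, and called lower in at least 3 lines was 1 gene, MRPL19, against 6.32%. Between lines no control libraries are shared.

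MRPS18A (mL66, ENSG00000096080, chr6:43671303-43687791, minus strand) was called in all 4 lines. It is 1 of 3 mitochondrial proteins related to the bacterial protein S18, and it resides in the large subunit. In HT29 it was at 42.2, 42.5 and 44.3 CPM in 2D and at 61.1, 71.1 and 65.4 CPM in 3D. In LS513 it was at 56.1, 51.6 and 52.9 CPM in 2D and at 75.3, 82.7 and 61.1 CPM in 3D. In HCT116 it was at 53.0, 45.3 and 59.3 CPM in 2D and at 66.7, 63.7 and 73.4 CPM in 3D. The 3D libraries lay above all 2D libraries in each of these lines. In LS174T the levels were 50.6, 46.0 and 46.5 CPM in 2D and 66.6, 94.0 and 59.4 CPM in 3D, again with no overlap. The log2 fold changes were 0.62 (SE 0.14, adjusted p = 0.00097) in HT29, 0.45 (SE 0.13, adjusted p = 0.018) in LS513, 0.37 (SE 0.13, adjusted p = 0.041) in HCT116 and 0.62 (SE 0.13, adjusted p = 0.0024) in LS174T. The call in HCT116 was lost in 12 of the 24 fits that each left out 1 library, with adjusted p up to 0.20: those without any HT29 library, without 3D library 1 of LS513, or without any HCT116 library but 2D library 3. The call in LS513 was lost without 3D library 1 or 2 or 2D library 2, with adjusted p up to 0.12. Exons of RSPH9 lie opposite 47.0% of its exonic bases. The related MRPS18B, of the small subunit, rose in LS174T (0.39), a call lost without 3D library 2 (0.22, adjusted p = 0.16) or 2D library 2, and MRPS18C, also of the small subunit, was called in no line, with log2 fold changes between -0.18 and 0.23.

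The proteins of the stalk, which recruits the translation factors to the large subunit, are MRPL10, MRPL11, MRPL12, MRPL53 and MRPL54, and all 5 had positive fold changes in all 4 lines. MRPL10 (uL10m, chr17:47823272-47831534, minus strand), which anchors the copies of MRPL12, was called in 3 lines. It was at 58.4, 58.7 and 57.7 CPM in 2D and at 79.6, 86.8 and 80.0 CPM in 3D in HT29. In LS174T it was at 34.3, 36.7 and 36.0 CPM in 2D and at 51.4, 56.5 and 43.6 CPM in 3D. Its 2D and 3D libraries overlapped in none of the 4 lines, and the log2 fold changes were 0.49 in HT29 (SE 0.095, adjusted p = 0.00027), 0.50 in LS174T (SE 0.096), 0.28 in LS513 (SE 0.095) and 0.23 in HCT116 (SE 0.094, adjusted p = 0.066). The call in LS513 was lost without 5 of the 6 libraries of that line, 3D library 3 being the exception.

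MRPL53 (mL53, chr2:74471958-74473322, minus strand) was called in HT29, LS513 and HCT116. In HT29 it was at 25.7, 27.6 and 24.4 CPM in 2D and at 37.0, 36.2 and 39.0 CPM in 3D. In HCT116 it was at 20.5, 17.6 and 25.3 CPM in 2D and at 28.4, 29.5 and 32.2 CPM in 3D. Neither line had overlapping groups, and the log2 fold changes were 0.53 (SE 0.16, adjusted p = 0.011) and 0.51 (SE 0.16, adjusted p = 0.019). In LS513 it was 0.45 (SE 0.16, adjusted p = 0.04). That call was lost without any LS513 library but 3D library 3, without 3D library 2 of HCT116 or without 2D library 1 of HT29 (adjusted p up to 0.27), and the call in HCT116 without 3D library 3, 2D library 1 or 2D library 2 (adjusted p up to 0.12). In LS174T it was at 22.7, 22.3 and 22.4 CPM in 2D and at 26.4, 39.9 and 22.3 CPM in 3D, which overlap, with 0.39 (SE 0.16, adjusted p = 0.077). MRPL54 (mL54, chr19:3762664-3768575, plus strand) was at 22.2, 22.5 and 20.8 CPM in 2D and at 31.4, 42.2 and 34.6 CPM in 3D in HT29. In LS174T it was at 18.3, 16.8 and 15.1 CPM in 2D and at 24.3, 43.6 and 20.5 CPM in 3D. Its groups did not overlap in either line, and the log2 fold changes were 0.72 (SE 0.20, adjusted p = 0.0062) and 0.81 (SE 0.20, adjusted p = 0.0062), the latter being 0.43 (adjusted p = 0.079) without 3D library 2. In LS513 and HCT116 MRPL54 differed by 0.44 and 0.32, with adjusted p of 0.11 and 0.23. MRPL11 rose in HT29 (0.51, adjusted p = 0.042), and MRPL12 was called in no line, with log2 fold changes between 0.01 and 0.30.

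MRPL19 (bL19m, chr2:75646783-75690851, plus strand), a protein at the interface between the subunits in bacteria, was the gene called lower in 3 lines. In HT29 it was at 61.6, 64.5 and 70.5 CPM in 2D and at 47.8, 52.8 and 53.9 CPM in 3D. In LS513 it was at 80.9, 81.1 and 80.8 CPM in 2D and at 59.4, 58.9 and 74.1 CPM in 3D. In HCT116 it was at 79.6, 75.3 and 74.3 CPM in 2D and at 50.3, 52.5 and 64.6 CPM in 3D. All 3D libraries of these lines lay below the 2D libraries. The log2 fold changes were -0.35 (SE 0.099, adjusted p = 0.0075), -0.33 (SE 0.098, adjusted p = 0.015) and -0.45 (SE 0.099, adjusted p = 0.0014). In LS174T it was at 81.6, 83.3 and 81.5 CPM in 2D and at 74.2, 73.5 and 82.5 CPM in 3D, which overlap, a log2 fold change of -0.10 (SE 0.098, adjusted p = 0.50). The call in HT29 was lost without 3D library 1 or 2D library 3 (adjusted p up to 0.071), and that in LS513 without 3D library 1 or 2 or 2D library 2 (adjusted p up to 0.086).

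**Figure D3:**
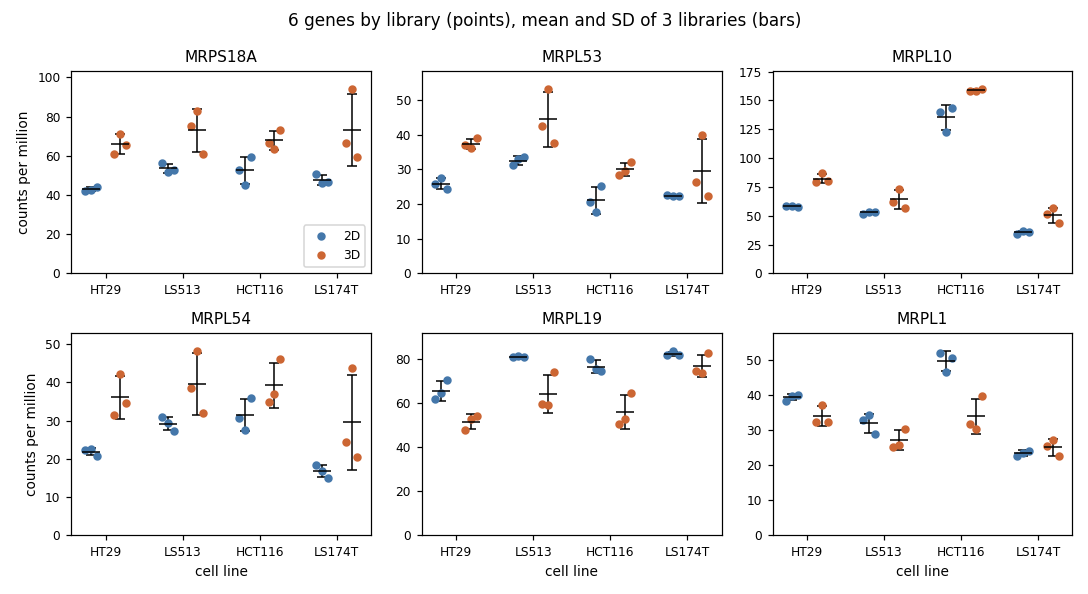
Levels of 6 genes in CPM (vertical axes, starting at 0) in the 2D (blue) and 3D (orange) libraries of each line. Points are libraries, and the bar and whiskers are the mean and SD of 3. MRPS18A and MRPL10 lie higher in 3D in all 4 lines, MRPL19 lies lower in 3 lines and overlaps in LS174T, and MRPL1 separates most in HCT116.

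Averaged over the 4 lines, 45 of the 78 genes differed between 3D and 2D, 34 higher and 11 lower. The 34 are 43.6% of the family, against 26.6% of all genes tested, and the 11 are 14.1%, against 23.9%. The median was 0.14, where all genes had 0.04. The changes were small: they ran from 0.57 (MRPL54, SE 0.099) to -0.31 (MRPL19, SE 0.049), and no gene reached a log2 difference of 1 in any line. By sign alone, 34 of the 78 genes had a positive fold change in all 4 lines, as had 23.5% of all genes, and 6 had a negative one in all 4, as had 23.8% of all genes.

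By part of the ribosome, 22 of 51 large subunit genes were higher over the mean of the lines and 8 lower, with a median of 0.15, and 11 of 26 small subunit genes were higher and 3 lower, with a median of 0.12. MRPS36, which is no ribosomal protein, was higher as well (0.21, SE 0.057). Of the 5 stalk genes 4 were higher and 0 lower (median 0.38). Of the 6 genes at the exit of the peptide tunnel 5 were higher and 0 lower (0.25). Of the 8 of the central protuberance 3 were higher and 1, MRPL18, lower (0.16). Counts by part and by ancestry stand beside the 26.6% of all genes called higher and the 23.9% called lower. The sites hold few genes, the stalk was named after its values were seen, and transcript length was not taken into account. By ancestry, 13 of 27 genes with relatives in all ribosomes were higher and 5 lower. Of 19 classed with bacterial relatives 9 were higher and 2 lower, and of 31 classed as mitochondrial alone 11 were higher and 4 lower.

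The genes that were higher in 3D had shorter and more GC-rich transcripts than those that were lower. The median length of the principal transcript was 1336 bases for the 34 genes called higher and 1706 bases for the 11 called lower, and the median GC content was 52.3 and 41.7%. The 33 members not called had medians of 1455 bases and 51.5%, nearer to the genes called higher, and the ranges overlapped. The tested protein-coding genes had the same order, with 2280 bases and 55.6% for those called higher and 4328 bases and 44.1% for those called lower. Under 1000 bases, 9 of 15 members were higher (60%) and 2 lower (13.3%), with a median of 0.24. Of the 892 protein-coding genes in that class 48.2% were higher and 6.17% lower, with a median of 0.34. From 1000 to under 2000 bases, 21 of 47 members were higher (44.7%) and 5 lower (10.6%), with a median of 0.14. Among protein-coding genes of that length 44.1% were higher and 11.2% lower (median 0.21). From 2000 bases on, 4 of 16 members were higher and 4 lower (median 0.01), where 22.8% of protein-coding genes were higher and 33.3% lower (median -0.04). Over the 78 members, Spearman's rho between length and the mean log2 difference was -0.35, and over 14494 protein-coding genes it was -0.35 as well. For GC content it was 0.42 and 0.39. These are correlations across genes of the same libraries, which are not independent, and the part of length and GC content in the growth differences was not tested.

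**Figure D4:**
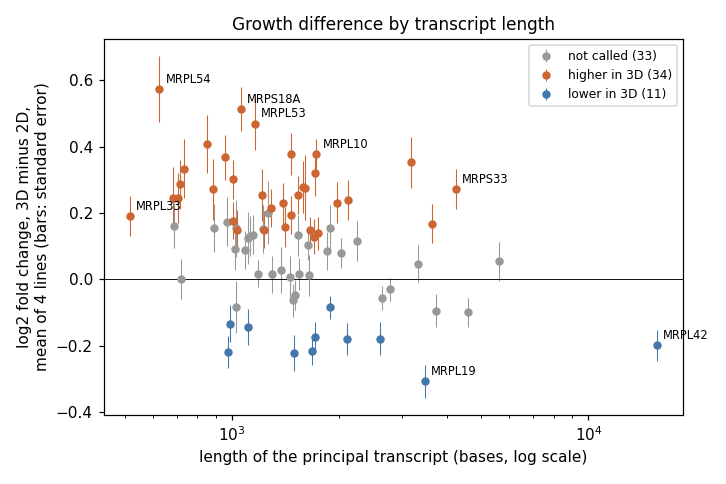
Length of the principal transcript in bases (horizontal axis, log scale) against the log2 fold change of 3D minus 2D averaged over the 4 lines (vertical axis, whiskers are standard errors) for the 78 genes. Orange points are the 34 genes called higher, blue points the 11 called lower and grey points the 33 not called. Of the 15 genes under 1000 bases 9 are orange and 2 blue, and MRPL42, at 15582 bases, lies below 0.

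Whether growth acted differently in the lines was tested by the interaction of line and growth. It was called for 4 of the 78 genes, against 17.1% of all genes. At an unadjusted p under 0.05 there were 11, a count without a share over all genes and not set against them. The 4 were MRPS6, MRPL1, MRPS33 and MRPS35.

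MRPS6 (bS6m, chr21:34073224-34143034, plus strand), a protein of the platform of the small subunit, differed most between the lines (adjusted p = 0.0095). In HT29 it was at 122, 124 and 95.9 CPM in 2D and at 88.0, 74.0 and 72.9 CPM in 3D. In LS513 it was at 61.3, 60.4 and 54.4 CPM in 2D and at 69.1, 68.9 and 65.8 CPM in 3D. The groups did not overlap in either line and lay in opposite order, with log2 fold changes of -0.54 (SE 0.11, adjusted p = 0.00054) and 0.21 (SE 0.11, adjusted p = 0.19). In HCT116 and LS174T the 2D and 3D libraries overlapped (-0.17 and -0.04). Its exons share 9.61% of their bases with AP000317.2 and SLC5A3 on the same strand.

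MRPL1 (uL1m, chr4:77862520-77952790, plus strand), which forms the mobile stalk where tRNA leaves the ribosome, differed with an adjusted p of 0.026. In HCT116 it was at 52.0, 46.6 and 50.8 CPM in 2D and at 31.8, 30.5 and 39.7 CPM in 3D. In LS174T it was at 22.7, 23.5 and 24.3 CPM in 2D and at 25.6, 27.4 and 22.6 CPM in 3D. The groups of HCT116 did not overlap and those of LS174T did, and the log2 fold changes were -0.55 (SE 0.11, adjusted p = 0.00053) and 0.10 (SE 0.11, adjusted p = 0.54). HT29 and LS513 had -0.21 and -0.23, neither of them called.

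MRPS33 (mS33, chr7:141002610-141015228, minus strand), a small subunit protein without bacterial relatives, differed with an adjusted p of 0.039. In HT29 it was at 45.6, 46.8 and 41.5 CPM in 2D and at 66.1, 74.2 and 63.5 CPM in 3D, with no overlap (0.60, SE 0.12, adjusted p = 0.00038). In LS513 it was at 45.4 ± 2.31 CPM in 2D and 44.5 ± 3.89 CPM in 3D (SD, n = 3), which overlap (-0.03). LS174T had 0.38 (adjusted p = 0.027, lost without 3D library 2 or any 2D library, up to 0.22) and HCT116 0.13 (adjusted p = 0.44). MRPS35 (mS35, chr12:27710773-27756295, plus strand) differed with an adjusted p of 0.048. In HCT116 it was at 97.6, 96.8 and 96.9 CPM in 2D and at 82.1, 74.9 and 85.3 CPM in 3D, and in LS174T at 134, 147 and 148 CPM in 2D and 153, 150 and 156 CPM in 3D. Neither pair overlapped, and they lay in opposite order (-0.27, adjusted p = 0.0063, and 0.10, adjusted p = 0.31). The number of interactions called was 1 without 2D library 1 or 2 of LS174T, 2 without 3D library 4 or any 2D library of HT29, 3D library 2 or 2D library 1 of HCT116, 2D library 1 or 2 of LS513, or 3D library 1 or 2D library 3 of LS174T, 8 without 3D library 3 of HCT116 and 9 without 3D library 2 of LS174T.

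The level of the genes differed between the lines over both growth conditions for 75 of the 78, against 95.7% of all genes. Each line was compared with the mean of the other 3, both growth conditions weighted equally. The study kept HCT116 in McCoy medium and the other lines in DMEM, so for HCT116 line and medium cannot be told apart. In HT29 25 genes were higher than in the other lines and 21 lower, where 35.4 and 32.9% of all genes were. In LS513 20 were higher and 37 lower (36.2 and 31.9% of all genes), in HCT116 36 and 18 (41.4 and 33.6%), and in LS174T 23 and 36 (39.9 and 29.6%). These contrasts share libraries, and the numbers are given side by side only.

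MRPL13, a large subunit protein whose gene lies on chromosome 8, had the widest difference. In HT29 it ranged from 230.3 to 319 CPM with a median of 259 over 6 libraries, and in the other lines from 54.2 to 108 CPM with a median of 59.9, so HT29 did not overlap them. The log2 difference was 1.93 (SE 0.062, adjusted p = 1.3e-18). MRPL45, at the tunnel exit and encoded on chromosome 17, was also high in HT29 (132 to 150.0 CPM, against 47.7 to 107 CPM, log2 difference 1.05), and MRPL34 and MRPL52 were low there (-1.01 and -0.79), again without overlap.

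MRPS23, a small subunit gene on chromosome 17, was the highest in HCT116, with 149.8 to 214 CPM against 50.8 to 92.5 CPM in the other lines. The log2 difference was 1.47 (SE 0.064), and MRPL10, on the same chromosome, was higher there by 1.40 (SE 0.051; 123 to 159.8 CPM against 34.3 to 86.8 CPM). MRPS6 and MRPS35 were lowest in HCT116 (-0.92 and -0.80). In LS513 MRPS25 (0.93) and MRPL9 (0.86) were high and MRPS21 was low (-1.17; 32.0 to 42.6 CPM against 53.4 to 111 CPM). MRPL13 was lower there too (-1.01), although its range of 54.2 to 60.0 CPM overlapped that of the other lines. In LS174T MRPL16 (1.02; 140.4 to 177 CPM against 61.7 to 91.3 CPM) and MRPL50 (0.77) were high, and MRPL9 (-1.17) and MRPL10 (-0.98) were low, MRPL10 with some overlap. The growth differences of the family within a line reached 0.81 at most. Gene copy number was not measured here.

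**Figure D5:**
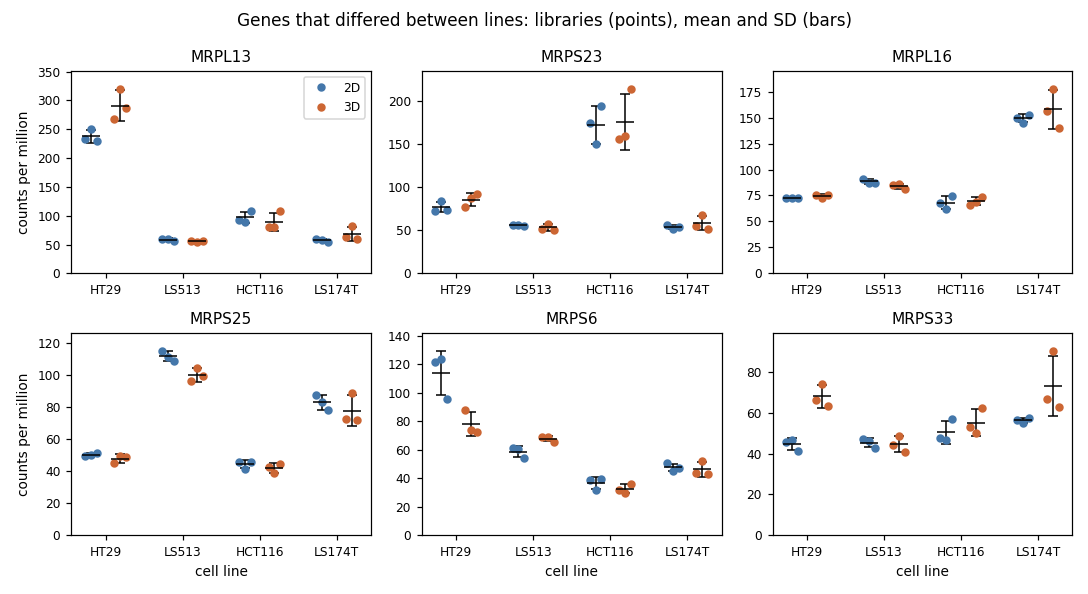
Levels of 6 genes in CPM (vertical axes, starting at 0) by line and growth condition, with libraries as points and the mean and SD of 3 libraries as bar and whiskers. MRPL13 is highest in HT29, MRPS23 in HCT116, MRPL16 in LS174T and MRPS25 in LS513 under both growth conditions. In MRPS6 and MRPS33 the difference between 2D and 3D differs between lines.

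Other genes of mitochondrial translation were examined by lists, whose counts over the mean of the lines stand beside the 26.6% of all genes called higher and the 23.9% called lower. The 5 ribosomal subunits with other symbols split: over the mean of the lines 3 were higher, namely DAP3 (0.12), CHCHD1 (0.21) and GADD45GIP1 (0.36), and PTCD3, which also binds RNA, was lower (-0.30). PTCD3 fell in HT29 (-0.41), LS513 (-0.35) and HCT116 (-0.37) and was at -0.08 in LS174T, the same pattern of calls as MRPL19. AURKAIP1 was not called (0.19). Of 24 genes for assembly of the ribosome and modification of its RNA, 4 were higher (16.7%) and 8 lower (33.3%) over the mean of the lines, with a median of -0.03. MTERF3, an assembly factor, fell in all 4 lines (-0.54 for HT29, -0.65 for LS513, -0.83 for HCT116, -0.37 for LS174T), and NOA1, a GTPase, rose in HT29, HCT116 and LS174T (0.31, 0.30 and 0.56).

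Of 16 mitochondrial translation factors 1 was higher (6.25%) and 7 lower (43.8%) over the mean of the lines (median -0.04). The elongation factor GFM1 fell in HT29 (-0.51), LS513 (-0.53) and HCT116 (-0.50), and LRPPRC, which stabilises mitochondrial mRNAs, fell in the same lines by 0.49, 0.26 and 0.46. Of 20 mitochondrial tRNA synthetases 4 were higher (20.0%) and 8 lower (40.0%, median -0.05), MARS2 being lower in all 4 lines, by -0.49, -0.53, -0.64 and -0.38, and VARS2 in HT29 alone (-0.55). Of 14 genes for mitochondrial transcription and its nuclear regulators 2 were higher (14.3%) and 7 lower (median -0.13): the coactivator PPRC1 fell in all 4 lines (-0.62, -0.35, -0.36 and -0.54 in HT29, LS513, HCT116 and LS174T), and MYC rose in LS174T (0.68). The medians of these last 4 lists lay below the 0.04 of all genes, and that of the MRPL and MRPS genes, 0.14, above it.

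Both mitochondrial rRNAs were higher over the mean of the lines, with log2 differences of 1.12 for MT-RNR1 and 1.34 for MT-RNR2. Within a line MT-RNR2 was called in HCT116 (1.83) and neither was called in the other lines, where MT-RNR1 in HT29 was at -0.25. Poly(A)+ selection takes them up in part only, and their levels varied widely, between 129 and 1965 CPM for MT-RNR1. Of the 13 mitochondrially encoded mRNAs 9 rose in HCT116 and 0 were called in the other lines. In HCT116 3D library 1 had 6.40% of its counts from mitochondrially encoded genes, where the other 3D libraries had 2.45 and 1.66% and the 2D libraries between 1.14 and 1.84%. Without that library 2 of the 13 were called and their median was 0.45, against 1.28 with it, and 0 of the 2 rRNAs were called in HCT116.

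Among the other lists, 17 of 18 proliferation genes (94.4%) were lower in 3D over the mean of the lines and 0 higher, with medians between -0.53 (HT29) and -0.18 (LS174T) in the lines. The 10 epithelial genes were mostly higher in 3D over the mean of the lines (7 higher, 1 lower, median 0.36). On the log2 scale they ran from -0.19 to 2.04 (KRT20), with CDX2 at 0.95. In HCT116 4 were called higher and 0 lower, with a median of 0.23 and a lowest value of -1.79. Of the 6 immune genes CD14, CD68 and LYZ passed the filter and all 3 were higher over the mean of the lines, and the sum of the list in HT29 was between 1327 and 1435 CPM in 2D and between 2435 and 2686 CPM in 3D, while PTPRC and CD3E stood as given above. Whether these differences have a part in those of the ribosomal protein genes was not tested.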

How the data were processed

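Poly(A)+ RNA of 24 libraries was sequenced by the authors as single reads, with bcl2fastq 2.18.0.12 and Trim Galore 0.4.1 for read preparation, alignment with STAR, removal of reads with several alignments and counting over exons of Ensembl release 91 with HTSeq 0.5.3. The deposited values are raw read counts per gene for each technical run. The submitters' processing notes name hg19, whereas the gene identifiers match GRCh38 (99.5% are in GENCODE 29), which was used for positions and lengths. The strand option of the counting is not given in the sources used here.

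Counts of the 8 runs of a library (7 in 1 HT29 3D library, whose run d was not analysed here) were summed, after checking that runs differed by little more than sampling noise (chi-square per degree of freedom between 1.01 and 1.03). Library totals had a median of 30777613, and 3 counts, taken as the floor for a gene, equalled at most 0.16 CPM, which covers counting error only. Tests used edgeR 4.0.16 in R 4.3.3 (TMM, filterByExpr, robust quasi-likelihood fit with 1 coefficient per line and growth condition), with p-values adjusted by Benjamini-Hochberg over 19387 genes. DESeq2 1.42.0, its size factors, no filter on low counts, a replicate block, 6-library fits, other cutoffs and leaving out each library were alternatives. The code was tested on simulated data. Promoter sequences came from RefSeq (GRCh38.p14). MRPL2, MRPL10, MRPL13, MRPL15, MRPL21, MRPL23, MRPL35, MRPS28 and MRPS36 were not in that table.

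The members and gene lists were chosen with earlier results of these data known. Named with values were the 3 members with the largest rise and fall per line among those called without overlap, those called the same way in the most lines, those with the smallest interaction p, the 2 highest and lowest per line against the others, the 5 highest and lowest per kilobase, the MRPS18 paralogs, MRPS36, and from each list of mitochondrial translation the 2 genes with the smallest p. The stalk proteins, MRPL18, the neighbour pairs and further list members were named after their values were seen.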

Additional observations from a re-analysis of the deposited data

Results flagged for a closer look

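For 4 of the 78 genes the difference between 3D and 2D was itself different between the lines by the edgeR interaction test. Of all genes tested 17.1% were called by that test. The adjusted p was 0.0095 for MRPS6, lower in 3D in HT29 and with the opposite order in LS513, and 0.026 for MRPL1, lower in 3D in HCT116. It was 0.039 for MRPS33, higher in 3D in HT29 and LS174T, and 0.048 for MRPS35, lower in 3D in HCT116. Without any 1 library the number of members called ran from 1 to 9, and which of the 4 genes kept the call is not given.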

How the results depend on the processing

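The counts of genes called in single lines depended on the settings, while the 45 called over the mean of the lines (39 to 55 without any 1 library) and the 75 that differed in level between lines (74 to 78) stayed within 1.5 times. Without any 1 library the count ran from 18 to 47 in HT29, 0 to 12 in LS513, 5 to 18 in HCT116, 2 to 41 in LS174T and 1 to 9 for the interaction. With the 6 libraries of a line alone it was 48 in HT29, 11 in LS513 and 1 in LS174T. With the log2 cutoffs of the study (under -0.5 or over 1.5) it was 1 in HT29 and in HCT116 and 0 in LS513 and in LS174T. At an unadjusted p under 0.05 it was 14 in LS513 and 38 in LS174T. DESeq2 called 23 in LS174T and 7 interactions. A replicate block gave 16 in HT29, 3 in LS513, 10 in HCT116, 7 in LS174T, 40 over the mean of the lines and 0 interactions. Whether equal numbers mark libraries made together is not stated. Over the genes tested, the correlation of deviations ran from -0.146 to 0.0938 for 11 same-numbered pairs and from -0.229 to 0.221 for other pairs. Deviations from means of 3 libraries cannot exclude an effect shared by the members. In HCT116 library 3 was the highest for 73 members in 3D and 69 in 2D. The share of all genes called at each setting is not given, and the cause of the shifts in the counts was not tested. Of 1260 alternative values for 42 named gene and line calls, 1136 kept direction and call, 124 lost the call and 0 reversed.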
